A study of Mus musculus with 16 samples.

Results

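The AMPA receptor subunit genes were taken as every transcript carrying the gene name Gria1, Gria2, Gria3 or Gria4, both as the sum over each gene and as single isoforms. They comprised 15 of the 80137 transcripts with an expression level, with 3 of Gria1, 8 of Gria2 and 4 of Gria4. Gria3 lies on chromosome X. Of the 60863 transcripts matched to the GENCODE vM21 annotation none lay on that chromosome, and Gria3 was not analysed here. A further 24 transcripts assembled from the reads at the same 3 loci had no gene name, and they are described separately.

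RNA was measured in the hippocampus of 16 male C57BL/6 mice of 3 months, 4 per group, with both hippocampi of a mouse pooled into 1 library. Homecage (HC) mice stayed in their cages and received neither shocks nor escape trials. Control (Ctrl) mice underwent 30 escape trials with foot shocks of 0.4 mA and had no earlier inescapable shocks. Mice of the 2 remaining groups first received 180 inescapable shocks of 0.4 mA and then the 30 trials. They were separated afterwards into LH (learned helpless) mice and NLH mice, which were not helpless, by their escape failures and latencies. NLH and LH are thus outcomes of 1 procedure. Per the paper's methods an escape ended the shock of a trial, so mice with more failures and longer latencies received more shock. LH therefore also differs from NLH and Ctrl in shock during the trials, and the part of this in the values was not tested. Tissue was taken 3 h after the trials. Expression is given as FPKM, the fragments of a transcript divided by its length in kilobases and by the library's total. Mice are named by group and number, as in LH 4.

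AMPA receptors are tetrameric, glutamate-gated channels that carry most fast excitatory transmission in the hippocampus. Gria1 encodes GluA1, whose insertion into synapses is a classical step of long-term potentiation. Gria2 encodes GluA2, whose edited pore residue makes the channel nearly impermeable to calcium, and Gria4 encodes GluA4, which in the adult hippocampus is known chiefly from interneurons. Each of these genes has a pair of mutually exclusive exons, flip and flop, which encode the same stretch of the ligand-binding domain in alternative forms. Flip forms of GluA2 and GluA4 desensitize more slowly than their flop forms.

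The flip and flop exons are shown because isoforms of 1 gene are told apart at these places. They were found by reading frame in the GENCODE vM21 transcripts of the GRCm38 (mm10) genome. In the lines that follow, read 5′ to 3′ on the strand of the gene, capitals mark the bases at which flip and flop of the same gene differ.
Gria1 flop: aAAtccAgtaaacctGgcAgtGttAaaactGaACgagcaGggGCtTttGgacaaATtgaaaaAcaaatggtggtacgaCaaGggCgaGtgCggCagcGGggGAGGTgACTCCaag
Gria1 flip: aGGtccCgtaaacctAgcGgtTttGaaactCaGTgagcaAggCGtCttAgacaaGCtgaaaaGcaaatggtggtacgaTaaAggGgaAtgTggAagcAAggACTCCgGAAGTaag
Gria2 flop: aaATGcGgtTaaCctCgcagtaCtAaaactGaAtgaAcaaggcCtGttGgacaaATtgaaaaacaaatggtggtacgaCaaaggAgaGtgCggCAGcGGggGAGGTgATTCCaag
Gria2 flip: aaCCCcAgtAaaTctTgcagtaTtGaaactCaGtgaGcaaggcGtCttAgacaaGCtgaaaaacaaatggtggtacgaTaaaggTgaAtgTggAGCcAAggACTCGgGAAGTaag
Gria4 flop: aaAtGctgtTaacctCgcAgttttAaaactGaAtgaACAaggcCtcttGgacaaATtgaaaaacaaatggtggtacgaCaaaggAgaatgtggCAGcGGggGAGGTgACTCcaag
Gria4 flip: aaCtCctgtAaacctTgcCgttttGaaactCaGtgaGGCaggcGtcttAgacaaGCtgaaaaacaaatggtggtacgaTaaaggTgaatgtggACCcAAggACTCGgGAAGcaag
In Gria1, on the plus strand of chromosome 11, the flop exon lies at chr11:57309769-57309883 and the flip exon at chr11:57310608-57310722. In Gria2, on the minus strand of chromosome 3, flop lies at chr3:80691320-80691434 and flip at chr3:80690404-80690518. In Gria4, on the minus strand of chromosome 9, flop lies at chr9:4432773-4432887 and flip at chr9:4427030-4427144. All are coding exons, and flop comes first in the direction of transcription in each gene. Flip and flop of 1 gene differed at 36 bases in Gria1 and in Gria2 (68.7% identity) and at 31 bases in Gria4 (73.0%). The same exon was more alike between genes than the 2 exons of 1 gene were, with 87.8% to 93.9% identity for flop and 88.7% to 92.2% for flip.

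The isoforms fell into classes by these exons. Gria1-201 and the near-absent Gria1-204 hold flip, and Gria1-202 holds flop. Gria2-202 holds flip, Gria2-201 holds flop and ends further downstream (10371 bases against 4026 for Gria2-202), and Gria2-203, annotated as a target of nonsense-mediated decay, holds both. Gria2-204, Gria2-205, Gria2-206, Gria2-207 and Gria2-208 are annotated as retained-intron transcripts without a coding frame, and hold neither exon. Gria4-202 holds flip, Gria4-201 and Gria4-204 hold flop, and Gria4-203 is a short transcript of 2338 bases that ends before both exons. Whole, Gria1 spans chr11:57011387-57330244, Gria2 chr3:80681450-80802835 and Gria4 chr9:4417896-4796234.

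Libraries differed in depth, in transcripts at 0 and in scaling, and the part of these in the Gria values was not tested. Depth, estimated from the steps between low FPKM, was 20200000 to 38000000 fragments per mouse. Transcripts at 0 numbered 4872 to 7352 in 14 mice, 10846 in LH 3 and 15504 in LH 4, and median-ratio size factors ran from 0.847 (LH 4) to 1.269 (LH 2). Across the 16 mice, log2 of Gria1 and Gria2 followed the log of the size factor (Pearson's r of 0.805 and 0.774), and Gria4 did so less (0.350). These correlations are descriptions, since the points share the scaling of each library. Markers of excitatory neurons were present in all mice (5 of 5 genes, summed FPKM of 397 to 487.3 in HC and Ctrl, 378.5 to 450.0 in NLH and 324.9 to 523.9 in LH). In whole tissue, fewer cells of a type and less RNA per cell cannot be told apart. P-values below measure the spread between these mice.

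The summed FPKM of the 3 AMPA receptor genes lay close together in all groups, with log2 differences between -0.12 and 0.29. In the limma fit of 18287 gene sums, no Gria gene passed an adjusted p of 0.05 in any of the 4 comparisons, and none had an unadjusted p under 0.05. The equal-variance test of the study's methods on the same sums called none of them either, against 8.5%, 9.57%, 8.01% and 3.5% of the genes it tested. Over all genes the share past limma's adjusted threshold was 0% in Ctrl vs. HC, 0.00547% in NLH vs. Ctrl, 0% in LH vs. Ctrl and 0.0109% for LH vs. NLH, so limma called almost no gene of any kind. At an unadjusted p under 0.05, limma gave 493, 1023, 2107 and 1378 of all genes. Gria2 was the most abundant of the 3 genes, above Gria1 in 15 of 16 mice (ratio of FPKM of 0.995 to 1.40), and Gria1 was 4.10 to 8.76 times Gria4.

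Gria1 had summed FPKM of 75.3, 75.1, 67.6 and 77.7 in the HC mice and of 73.3, 78.0, 79.8 and 78.3 in the Ctrl mice. The NLH mice were at 75.7, 81.4, 88.2 and 64.7, and the LH mice at 82.8, 99.99, 66.3 and 61.1. The means lay close together and the groups overlapped, while the spread grew from an SD of 2.82 in Ctrl to 9.94 in NLH and 17.6 in LH. Gria1 in LH minus Ctrl was -0.02 on the log2 scale (95% interval -0.30 to 0.26, limma adjusted p = 0.980), and in NLH minus Ctrl it was -0.01 (-0.29 to 0.28, adjusted p = 1). Ordered by mean, LH, NLH, Ctrl and HC had no neighbours that differed beyond their spread (exact permutation tests, two-sided, p = 1, 1 and 0.229). Division by size factors turned the direction of LH minus Ctrl to 0.06.

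Gria2 was the steadiest member in the mice without inescapable shocks. Its summed FPKM was 89.0, 91.0, 86.1 and 90.3 in HC and 88.4, 90.4, 90.8 and 87.9 in Ctrl, a difference of 0.00 on the log2 scale (95% interval -0.18 to 0.19). NLH mice were at 93.1, 107.2, 104.6 and 90.5 and LH mice at 95.0, 99.5, 93.1 and 76.3. Of the NLH mice all but NLH 4 exceeded every Ctrl mouse, and LH 4 alone lay below all others. The log2 difference of Gria2 was 0.14 in NLH minus Ctrl (-0.05 to 0.33, limma adjusted p = 0.972), 0.02 in LH minus Ctrl (-0.17 to 0.21, adjusted p = 0.968) and -0.12 in LH minus NLH (-0.31 to 0.06, adjusted p = 0.765). Without LH 4 the last difference was -0.04. In the order NLH, LH, Ctrl, HC no neighbours differed beyond their spread (exact permutation tests, two-sided, p = 0.257, 0.829 and 0.943).

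Gria4 was the least abundant member and had the largest difference of the 3 in LH mice. It was at 9.71, 10.7, 9.02 and 10.6 FPKM in HC and at 9.49, 10.6, 9.72 and 9.38 in Ctrl. NLH mice were at 11.6, 11.6, 10.4 and 10.1, and LH mice at 14.5, 11.4, 16.1 and 7.72. LH 1, LH 2 and LH 3 lay above every Ctrl mouse, and LH 4 lay below every mouse of all groups. Gria4 in LH minus Ctrl was 0.29 on the log2 scale (-0.06 to 0.65, limma adjusted p = 0.543). Without LH 4 this difference was 0.50 with an adjusted p of 0.0491 from limma, so 1 library decided the call. Leaving out LH 4 also changed the fit of other genes. In LH vs. Ctrl 17% of all genes then had an unadjusted limma p under 0.05, against 11.5% with all mice. The share of all genes then past the adjusted threshold is not given here. The Gria4 difference was 0.15 without LH 3 and 0.39 without LH 3 and LH 4. Markers of inhibitory neurons (4 of 4 genes, Gad1, Gad2, Slc32a1 and Pvalb) were at a summed FPKM of 65.0 to 70.7 in Ctrl, 69.0 to 81.0 in NLH and 66.5 to 90.8 in LH, and their part in Gria4 was not tested. Ordered LH, NLH, HC and Ctrl, no neighbours differed beyond their spread (exact permutation tests, two-sided, p = 0.400, 0.171 and 0.771).

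**Figure D1:**
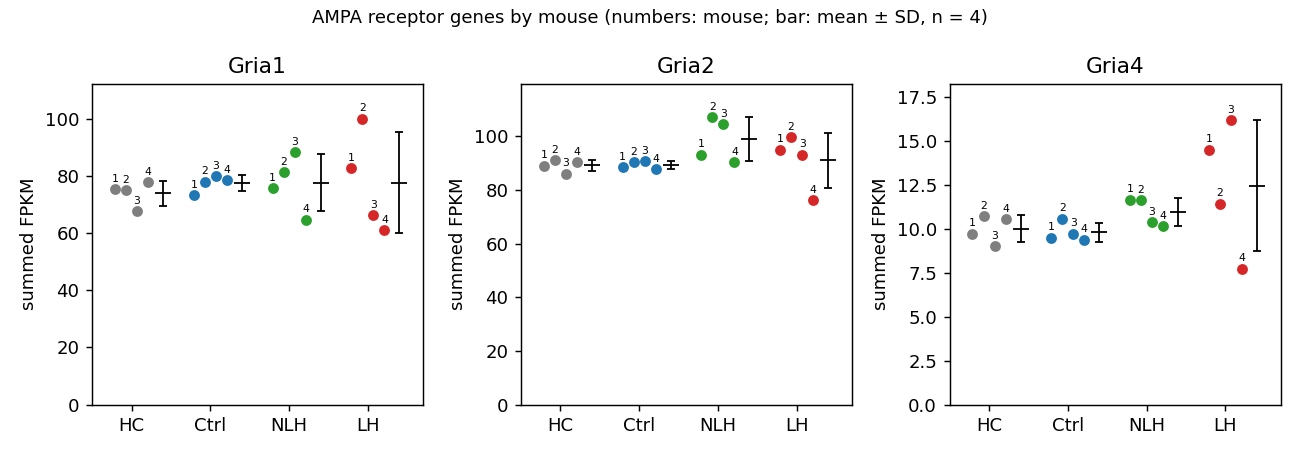
Summed FPKM of Gria1, Gria2 and Gria4 (vertical axes, from 0) in each of 16 mice, grouped as HC, Ctrl, NLH and LH, with numbers naming the mice and bars giving the mean ± SD of 4 mice. The LH mice spread widest in all 3 genes, from 61.1 to 99.99 in Gria1 and from 7.72 to 16.1 in Gria4.

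In the limma fit of 80137 transcripts none of the 15 single isoforms passed the adjusted threshold, where 0.00374% of all transcripts passed in Ctrl vs. HC, 0.0125% in NLH vs. Ctrl, 0.0462% in LH vs. Ctrl and 0.0412% for LH vs. NLH. At an unadjusted p under 0.05 limma gave 0, 3, 3 and 2 of the 15, against 3.45%, 5.12%, 10.7% and 8.72% of all transcripts. The cutoff of the study's methods, an equal-variance test on FPKM at an unadjusted p under 0.05, called 2, 2, 4 and 0 of the 15, against 6.68%, 7.2%, 7.69% and 4.47% of the transcripts tested. All 8 of these calls were Gria2 transcripts. They were Gria2-201 and Gria2-205 (both higher) in Ctrl vs. HC, Gria2-202 (higher) and Gria2-206 (lower) in NLH vs. Ctrl, and Gria2-201 (higher), Gria2-203, Gria2-205 and Gria2-206 (all lower) in LH vs. Ctrl. The LH vs. Ctrl and NLH vs. Ctrl comparisons share the same Ctrl mice.

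Gria2-201, the flop isoform with the extended 3′ end, was at 5.29, 2.89, 4.04 and 3.88 FPKM in HC and at 6.01, 5.74, 6.69 and 6.63 in Ctrl. It was at 13.3, 8.36, 12.6 and 7.74 in LH, and at 13.0, 3.67, 3.64 and 3.40 in NLH. HC, Ctrl and LH thus formed 3 steps without overlap, whereas NLH 1 stood with the LH mice and NLH 2, NLH 3 and NLH 4 with the HC mice. The 5 mice with the highest levels, the LH mice and NLH 1, were also the 5 with the lowest estimated depth (20200000 to 28200000 fragments, against 28600000 to 38000000 in the other 11), and the part of depth in this pattern was not tested. On the log2 scale the difference was 0.65 in Ctrl minus HC (95% interval -0.09 to 1.40, limma adjusted p = 1), 0.70 in LH minus Ctrl (-0.05 to 1.44, adjusted p = 0.497) and 1.03 in LH minus NLH (0.29 to 1.78, adjusted p = 0.431). Without NLH 1 the last difference was 1.49 with an adjusted p of 0.00932 from limma.

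Gria2-202, the flip isoform and the main coding transcript of the gene, was at 20.9, 29.3, 22.4 and 25.1 FPKM in HC and at 19.0, 21.8, 20.0 and 23.7 in Ctrl. It reached 41.9, 46.4 and 30.9 in NLH 2, NLH 3 and NLH 4 and was at 23.6 in NLH 1. The LH mice split into 30.8 and 34.2 (LH 1 and LH 2) and 19.3 and 19.4 (LH 3 and LH 4). Gria2-202 in NLH minus Ctrl was 0.71 on the log2 scale (0.24 to 1.18, limma adjusted p = 0.633), and in LH minus Ctrl it was 0.25 (-0.22 to 0.72, adjusted p = 0.682). The last value ranged from 0.10 (without LH 2) to 0.37 (without LH 3) with 1 mouse left out, and was 0.62 without LH 3 and LH 4. The coding transcripts Gria2-201 and Gria2-202 together were at 25.0 to 30.4 FPKM in Ctrl, 34.3 to 50.1 in NLH and 27.1 to 44.1 in LH. NLH lay above Ctrl without overlap (41.6 ± 7.43 against 27.4 ± 2.23, SD, n = 4, two-sided exact permutation test, p = 0.0286, which no split of 4 mice against 4 can go below), and LH overlapped Ctrl (exact p = 0.0857). Without any 1 Ctrl mouse the exact p for NLH was 0.0571, although the groups still did not overlap. With size factors, or without LH 4, that for LH was 0.0286. This sum was formed after the values had been seen.

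Retained-intron transcripts made up most of the FPKM carrying the name Gria2, in libraries prepared from total RNA. Gria2-206 was at 36.0, 31.8, 34.5 and 36.3 in HC and at 36.1, 35.5, 36.7 and 33.6 in Ctrl. It was at 30.5, 24.6, 28.2 and 24.6 in NLH, below every HC and Ctrl mouse, and at 27.9, 33.9, 33.1 and 25.7 in LH. The log2 difference was -0.40 in NLH minus Ctrl (-0.61 to -0.19, limma adjusted p = 0.410) and -0.24 in LH minus Ctrl (-0.45 to -0.03, adjusted p = 0.408). Gria2-205, a transcript of 2 exons at the 5′ end of the gene, was at 3.19 to 4.17 in Ctrl and 1.59 to 3.11 in LH without overlap, a log2 difference of -0.57 (-0.96 to -0.18, adjusted p = 0.279). LH 4 was at 1.59 and the other LH mice at 2.71 to 3.11, and without LH 4 the difference was -0.36. Gria2-204 was at 17.1 to 19.7 in Ctrl, 14.6 to 20.5 in NLH and 17.9 to 22.1 in LH, and all its log2 differences were between -0.12 and 0.16.

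Taking the 5 retained-intron transcripts together, their share of Gria2 FPKM was 66.1%, 58.5%, 65.8% and 64.2% in HC and 67.2%, 64.5%, 66.7% and 61.8% in Ctrl. In NLH it was 58.5%, 54.2%, 47.4% and 58.7%, and in LH 51.0%, 55.5%, 62.3% and 61.1%. NLH lay below Ctrl without overlap, with a difference of -10.4 percentage points (exact permutation test, two-sided, p = 0.0286). LH differed from Ctrl by -7.58 points on average and overlapped it in LH 3 alone (exact test, p = 0.0571, and 0.0286 without LH 3). With the unnamed assembled transcripts of the locus added to the total, these exact p-values became 0.0571 for NLH and 0.0286 for LH. The share was formed after the values had been seen.

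Gria2-208, a retained-intron transcript of 1975 bases, was present in only 3 of the 16 mice. It was at 12.1, 3.11 and 8.63 FPKM in NLH 2, NLH 3 and NLH 4, and at no more than 0.000752 FPKM in the other 13, NLH 1 among them. Its log2 difference of 4.59 in NLH minus Ctrl (2.37 to 6.82, limma adjusted p = 0.350) is set by the 0.1 added to FPKM. Without NLH 1 the limma adjusted p was 3.07e-05, and it was 3.06e-05 in LH vs. NLH. Leaving out the only NLH mouse that lacked the transcript makes its presence coincide with the group, so these p-values test nothing further. Gria2-203, which holds both exons, was at 3.19 to 4.58 in Ctrl and 1.75 to 3.19 in LH, a log2 difference of -0.61 (-1.15 to -0.07, adjusted p = 0.415). Gria2-207 was at or below 1.08 FPKM in every mouse.

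**Figure D2:**
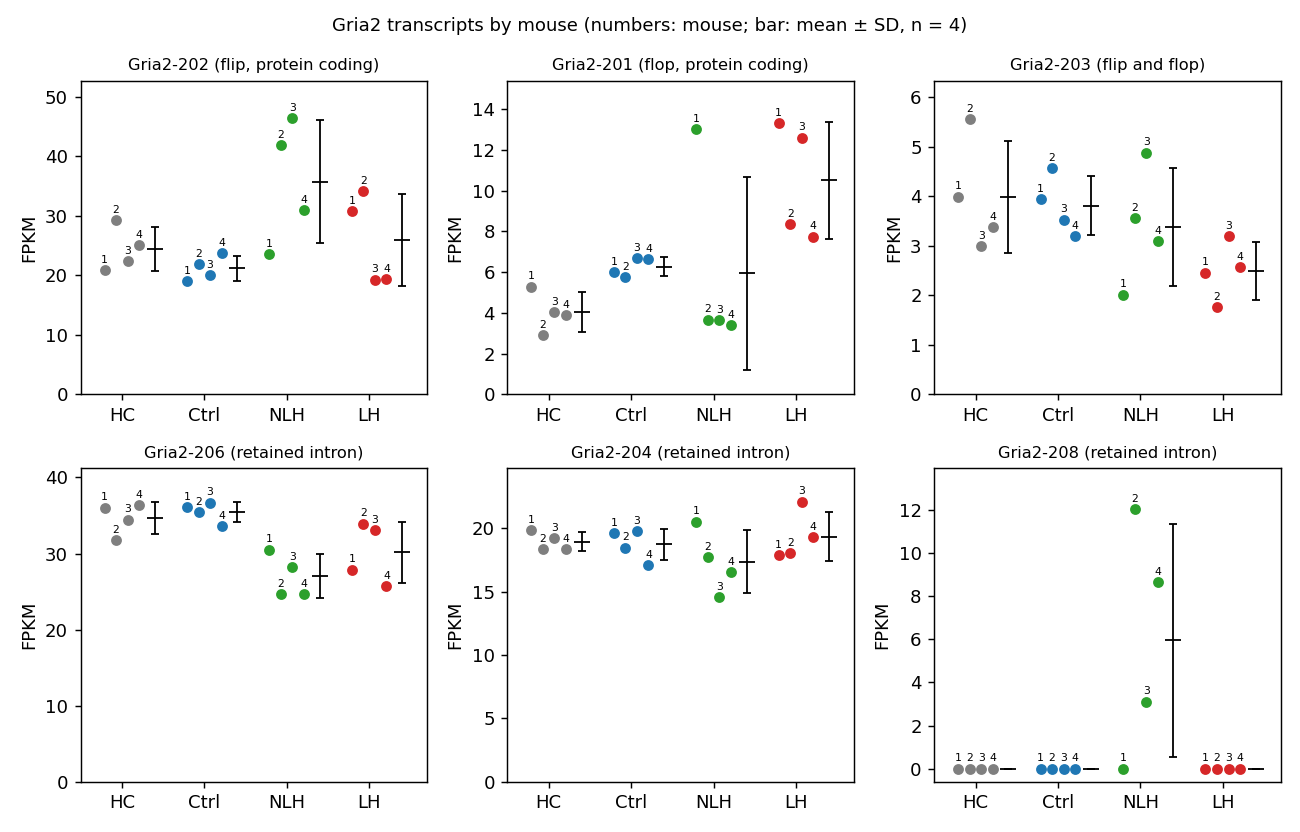
FPKM of 6 Gria2 transcripts (vertical axes) in each of 16 mice by group, with numbers naming the mice and bars giving the mean ± SD of 4 mice. Gria2-201 lies lowest in HC, above that in Ctrl and highest in LH, with NLH 1 at 13.0 among the LH mice, and Gria2-208 is above 3 FPKM in 3 NLH mice only.

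In Gria1, the flop isoform exceeded the flip isoform in 15 of 16 mice. Gria1-201 (flip) was at 35.9 to 38.2 FPKM in Ctrl, 28.7 to 36.7 in NLH and 22.8 to 48.6 in LH. Gria1-202 (flop) was at 37.4 to 41.7 in Ctrl, 35.8 to 52.1 in NLH and 38.3 to 51.0 in LH. On the log2 scale flip differed by -0.19 in NLH minus Ctrl and again by -0.19 in LH minus Ctrl, and flop by 0.14 and 0.11, all with limma adjusted p of at least 0.698. With 1 mouse left out, flop ranged from 0.06 (without NLH 3) to 0.24 (without NLH 4) in NLH minus Ctrl and from 0.03 (without LH 2) to 0.17 (without LH 4) in LH minus Ctrl, and flip in LH minus Ctrl from -0.39 (without LH 2) to -0.02 (without LH 4). Without LH 3 and LH 4, Gria1-201 in LH minus Ctrl turned to 0.18. Gria1-204 was at or below 0.405 FPKM everywhere.

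In Gria4, the short transcript Gria4-203, which lacks both exons, exceeded the other isoforms together in all 16 mice. It was at 6.03 to 6.85 FPKM in Ctrl, 5.76 to 7.94 in NLH and 4.85 to 11.1 in LH. The flip isoform Gria4-202 was at 0.664 to 1.56 in Ctrl and 0.896 to 2.21 in LH. The flop isoforms varied between mice. Gria4-201 was at 1.24, 1.33, 0.653 and 1.62 FPKM in NLH 3, NLH 4, LH 3 and LH 4, and at no more than 0.0308 in the other 12. Gria4-204 was at 0.534 in NLH 4 and 0.0261 in LH 4, and at 1.61 to 3.60 in the other 14. No Gria4 isoform had an unadjusted limma p under 0.05.

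**Figure D3:**
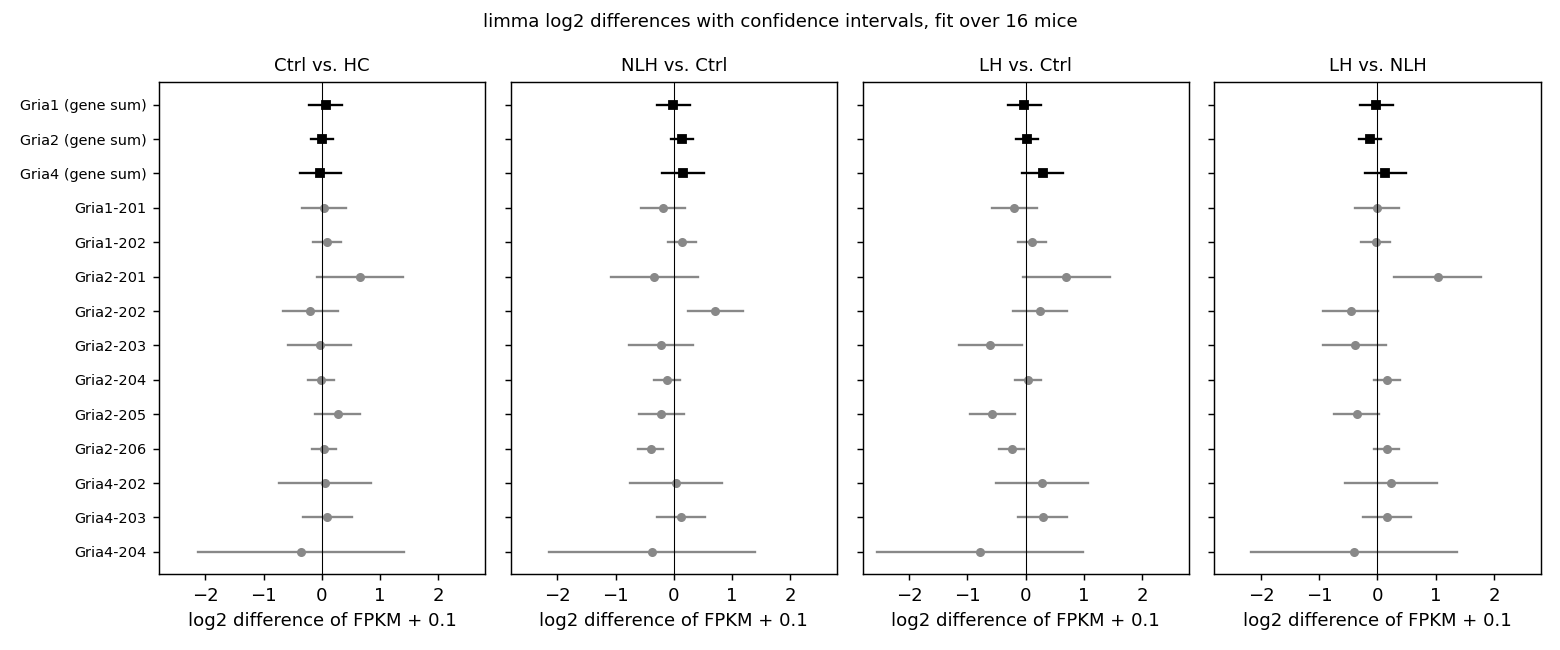
Log2 differences of FPKM + 0.1 (horizontal axes) with 95% intervals from limma, for the 3 gene sums (squares) and the transcripts with a mean of at least 1 FPKM (circles) in 4 comparisons, Gria2-208 left out for its scale. The intervals of the gene sums all cross 0, and those that exclude 0 belong to Gria2 transcripts.

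The isoform makeup was then tested as each transcript's FPKM over that of the other transcripts of its gene. None of the 15 Gria transcripts passed limma's adjusted threshold, beside 0.00444% (Ctrl vs. HC), 0.0222% (NLH vs. Ctrl), 0.0444% (LH vs. Ctrl) and 0.0644% (LH vs. NLH) of 45017 transcripts. At an unadjusted p under 0.05 there were 0, 3, 1 and 2 of the 15, all of Gria2, against 3.39%, 5.15%, 11.3% and 9.73% of all transcripts tested. Relative to the rest of Gria2, Gria2-202 was higher by 0.83 and Gria2-206 lower by a log2 difference of -0.80 in NLH minus Ctrl (limma adjusted p = 0.887 and 0.594). In LH minus NLH, Gria2-201 was higher by 1.24 (0.28 to 2.20, adjusted p = 0.406).

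The flip share, the FPKM of flip isoforms as a percent of flip plus flop, was compared in 12 exact permutation tests whose p-values were not adjusted. Gria2 was mostly flip, Gria1 was near an even mix and Gria4 was mostly flop. In Gria1 it was 50.9%, 49.4%, 46.1% and 47.8% in HC and 49.0%, 47.2%, 48.0% and 46.7% in Ctrl. It was 37.9%, 45.2%, 40.9% and 44.7% in NLH, below every Ctrl and HC mouse (a difference of -5.56 percentage points from Ctrl, exact permutation test, two-sided, p = 0.0286). In LH it was 43.6%, 49.0%, 41.0% and 37.3%, with LH 2 among the Ctrl mice (-5.02 points, exact test, p = 0.114). Without LH 2 the LH minus Ctrl difference was -7.11 points (exact p = 0.0286), without LH 4 it was -3.21, and without LH 3 and LH 4 it was -1.46. Without any 1 Ctrl mouse the NLH difference had an exact p of 0.0857, although the groups still did not overlap. NLH and LH overlapped fully (exact p = 0.886).

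In Gria2 the flip share was 79.8%, 91.0%, 84.7% and 86.6% in HC and 76.0%, 79.2%, 74.9% and 78.2% in Ctrl. Ctrl lay below HC without overlap, with a difference of -8.47 percentage points (exact permutation test, two-sided, p = 0.0286). Without any 1 Ctrl mouse, or with Gria2-203 counted as flop, the exact p was 0.0571, although without a Ctrl mouse the groups still did not overlap. In NLH it was 64.4%, 92.0%, 92.7% and 90.1%, with NLH 1 far below the other 3, which all exceeded every Ctrl mouse. In LH it was 69.8%, 80.4%, 60.5% and 71.4%, with LH 2 above every Ctrl mouse and the other 3 below all of them. The difference was 7.74 points in NLH minus Ctrl (exact p = 0.257), -6.56 in LH minus Ctrl (p = 0.171) and -14.3 in LH minus NLH (p = 0.114). Without NLH 1 the NLH minus Ctrl difference was 14.5 points, and without LH 2 the LH minus Ctrl difference was -9.84, each with an exact p of 0.0286. Without NLH 3 the first was 5.10 and without LH 3 the second was -3.21. The LH minus Ctrl difference was -2.0 without LH 3 and LH 4 and -1.74 with Gria2-203 counted as flop. Since the flop transcript of Gria2 is also the one with the extended 3′ end, exon choice and 3′ end cannot be told apart in these values.

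In Gria4 the flip share ranged from 15.1% to 36.8% in HC, 19.4% to 44.9% in Ctrl, 16.3% to 55.9% in NLH and 17.8% to 55.8% in LH. The spread within each group was larger than every difference between groups (exact permutation tests, two-sided, p of 0.429 to 0.943).

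**Figure D4:**
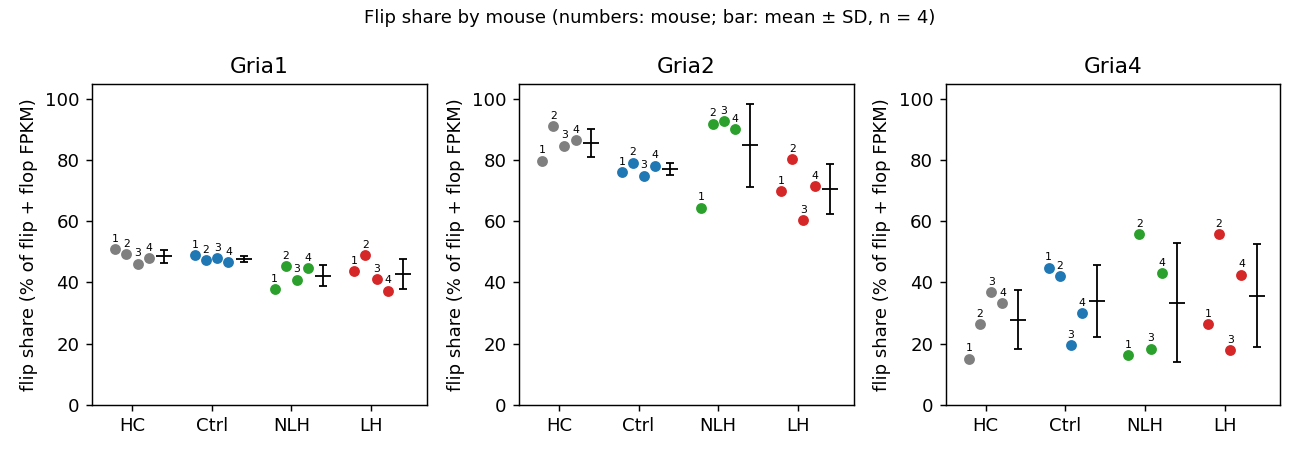
Flip share of Gria1, Gria2 and Gria4 (percent of flip plus flop FPKM, axes from 0) in each of 16 mice by group, with numbers naming the mice and bars giving the mean ± SD of 4 mice. All NLH mice lie below all Ctrl mice in Gria1, and NLH 1 lies at 64.4% in Gria2 while the other NLH mice are above 90%.

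The subunit makeup, free of the scaling of a library, was taken as each gene's percent of the summed FPKM of Gria1, Gria2 and Gria4. These sums cover all named transcripts, the retained-intron ones of Gria2 included. In Ctrl it was 43.8% ± 0.790 Gria1, 50.6% ± 0.690 Gria2 and 5.55% ± 0.257 Gria4 (SD, n = 4). In NLH the means were 41.3%, 52.8% and 5.87%, and in LH 42.6%, 50.6% and 6.87%. No difference passed in 12 exact permutation tests (two-sided), the smallest p being 0.0571 for Gria1 in NLH vs. Ctrl. Gria1 was at 42.8% to 44.6% in Ctrl and at 42.0%, 40.7%, 43.4% and 39.1% in NLH, and without NLH 3 the difference of -3.23 percentage points had an exact p of 0.0286. Counting only protein-coding transcripts, chosen after seeing the data, Gria1 was lower than in Ctrl by -7.94 percentage points in NLH and -6.25 in LH, and Gria2 was higher by 7.99 and 4.84, each with an exact p of 0.0286.

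The unnamed assembled transcripts held a sizeable part of each locus. They numbered 8 at Gria1, 9 at Gria2 and 7 at Gria4, and held 22.2% to 36.9%, 17.7% to 33.8% and 25.6% to 47.7% of the FPKM of the locus in single mice. The files give no exon structure for them, so neither exon class nor coding frame could be assigned. At Gria1 they summed to 39.5, 36.6, 39.2 and 37.4 FPKM in Ctrl, 30.8, 33.0, 34.8 and 36.4 in NLH and 25.7, 28.5, 29.7 and 34.4 in LH. NLH and LH both lay below Ctrl without overlap (exact permutation tests, two-sided, p = 0.0286 each), but after division by size factors the exact p was 0.0571 for NLH and 0.286 for LH. Without any 1 Ctrl mouse it was 0.0571 for each, as it was for NLH without NLH 1, although the groups compared still did not overlap. At Gria4 they summed to 4.28 to 5.25 FPKM in Ctrl and 6.08 to 7.59 in LH, also without overlap (exact p = 0.0286), and NLH minus Ctrl reached an exact p of 0.0286 without NLH 3 (2.27 FPKM). At Gria2 they were at 30.4 to 32.8 in Ctrl and 30.4 to 39.7 in LH, and at 37.7, 24.5, 22.4 and 23.4 in NLH, with NLH 1 again apart. The exact p at Gria2 became 0.0286 without HC 1 (Ctrl minus HC, 3.68 FPKM), without NLH 1 (NLH minus Ctrl, -8.12 FPKM) and without LH 2 (LH minus Ctrl, 7.04 FPKM). Summed over named and unnamed transcripts, the log2 difference of Gria2 in LH minus NLH turned from -0.12 to 0.02 and that in NLH minus Ctrl went from 0.14 to 0.06. In LH minus Ctrl, Gria1 went from -0.02 to -0.12 and Gria4 from 0.29 to 0.39 (limma adjusted p = 0.667 and 0.229).

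**Figure D5:**
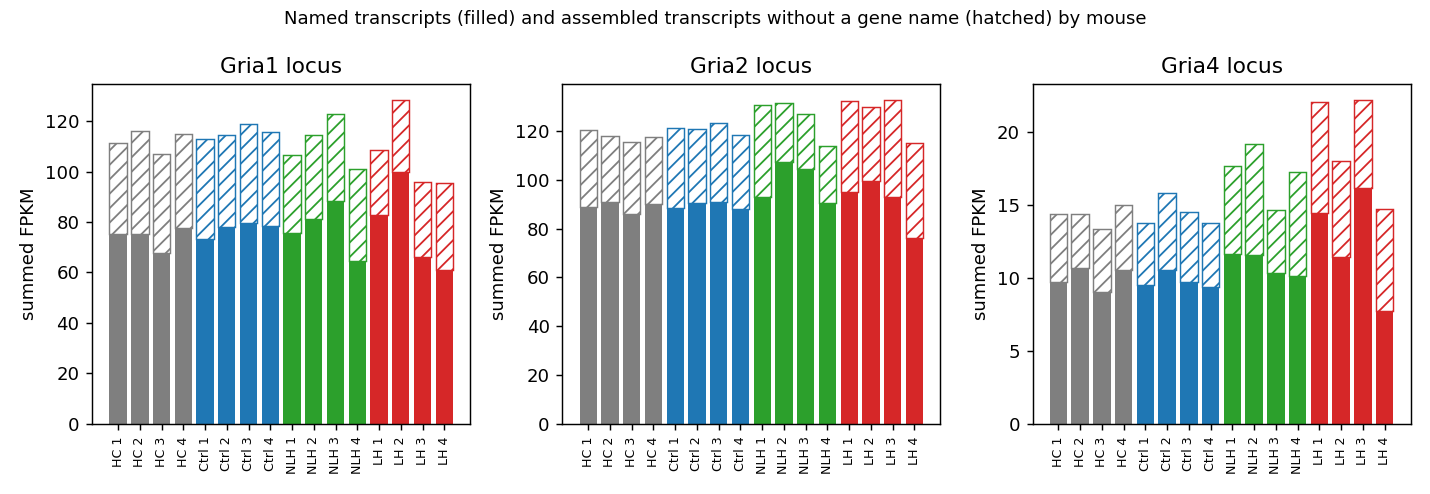
Summed FPKM at the Gria1, Gria2 and Gria4 loci (vertical axes, from 0) for each of 16 mice, split into named transcripts (filled) and assembled transcripts without a gene name (hatched). The hatched part of Gria1 is smaller in LH (25.7 to 34.4) than in Ctrl (36.6 to 39.5), and that of Gria4 is larger.

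The partners of the receptor were taken as 35 genes for auxiliary subunits and assembly, scaffolds and trafficking, and RNA editing, of which 34 had a value and Gripap1 had none. None passed limma's adjusted threshold in any comparison with all mice. Without LH 3 and LH 4, 3 passed it in LH vs. Ctrl, all higher, namely Akap5 (0.43, adjusted p = 0.0451), Frrs1l (0.33, adjusted p = 0.0314) and Shisa9 (0.91, adjusted p = 0.0472), where the median of all genes had moved from 0 to 0.19 and 24.3% of all genes had an unadjusted p under 0.05. Leaving out these mice for the partners was chosen after seeing the data, as were the names Frrs1l and Shisa9. The share of all genes past the adjusted threshold without LH 3 and LH 4 is not given here, so the 3 calls cannot be set beside it. With all mice, at an unadjusted p under 0.05, limma gave 2 higher in Ctrl vs. HC, 1 higher in NLH vs. Ctrl, 1 higher and 4 lower in LH vs. Ctrl, and none for LH vs. NLH, beside 2.7%, 5.59%, 11.5% and 7.54% of all genes in either direction. These unadjusted counts depended on scaling and on single mice. In LH vs. Ctrl they turned to 6 higher and 1 lower without LH 4 (17% of all genes) and to 8 higher and 1 lower without LH 3 and LH 4, and were 1 higher and 9 lower without LH 2 (15.8%) and 4 higher and 6 lower with size factors (18.6%). For LH vs. NLH they were 5 higher with size factors (12.5%) and 7 higher without LH 3 and LH 4 (15.3%). They were 3 higher without LH 4 (9.29% of all genes), 4 lower without LH 2 (13.2%) and 3 lower without NLH 1 (8.3%). In NLH vs. Ctrl they were 2 higher and 4 lower with size factors (6.96%) and 5 higher and 4 lower without LH 3 and LH 4 (11.8%), whose spread enters the fit of all groups, and in Ctrl vs. HC they were 4 higher under either (4.01% and 6.2%). The 18 auxiliary and assembly genes had a median log2 difference of -0.19 in LH minus Ctrl, against 0 over all genes, -0.11 in NLH minus Ctrl, against 0.06, -0.13 in LH minus NLH, against -0.06, and 0.12 in Ctrl minus HC, against 0.02. In LH minus Ctrl it was -0.01 without LH 4, against 0.09 over all genes, and 0.08 without LH 3 and LH 4. The auxiliary medians of the other comparisons with mice left out are not given here. In the same order, with all mice, the medians of the 13 scaffold and trafficking genes were 0.02, 0.04, -0.07 and 0.06, and those of the 3 editing enzymes 0.09, 0.13, -0.17 and 0.06. The editing median in LH minus Ctrl is the value of Adarb1, which ranged from -0.01 to 0.26 with 1 mouse left out. The other medians of these 2 lists with mice left out are not given here.

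Among the auxiliary subunits, Cacng8 encodes TARP gamma-8, which holds AMPA receptors at hippocampal synapses. It was at 4.17 to 6.63 FPKM in Ctrl and 2.14 to 5.67 in LH, a log2 difference of -0.71 (95% interval -1.27 to -0.15, limma adjusted p = 0.309), and its difference in LH minus NLH was -0.54 (adjusted p = 0.680). Without LH 4 the latter was -0.33, and without LH 3 and LH 4 the LH minus Ctrl difference was -0.49. Cnih2, a cornichon protein that slows channel closure, differed by -0.35 in LH minus Ctrl (-0.77 to 0.07, adjusted p = 0.535), by -0.58 without LH 2, by -0.14 without LH 4 and by 0.09 without LH 3 and LH 4. Prrt1 and Prrt2, synaptic proteins found with AMPA receptors, are named after their values were seen. Prrt1 was at 15.95 to 22.1 FPKM in Ctrl and 7.46 to 22.4 in LH (-0.54, -1.08 to -0.01, adjusted p = 0.422), and Prrt2 at 30.1 to 40.4 in Ctrl and 14.8 to 36.3 in LH (-0.55, -1.02 to -0.09, adjusted p = 0.343). Without LH 4 these differences were -0.28 and -0.31, and without LH 3 and LH 4 they were 0.04 and -0.06. Cacng3, a further TARP, was at 7.10 to 10.00 in Ctrl and 10.7 to 12.9 in NLH without overlap (0.39, 0.08 to 0.69, adjusted p = 0.716). Shisa7 was at 12.1 to 13.8 in HC and 14.2 to 16.3 in Ctrl (0.25, 0.05 to 0.45, adjusted p = 1).

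Of the scaffolds and trafficking proteins, Arc, an activity-induced gene whose product promotes AMPA receptor endocytosis, was at 5.40 to 7.96 FPKM in HC and 9.28 to 13.9 in Ctrl. Its log2 difference was 0.64 (95% interval 0.28 to 1.01, limma adjusted p = 1). Akap5, which anchors kinases and calcineurin near the receptor, was at 6.78 to 7.54 in Ctrl and 8.14 to 10.1 in LH (0.33, 0.09 to 0.56, adjusted p = 0.264), and differed by 0.19 in LH minus NLH (adjusted p = 0.713), or by 0.13 without NLH 3. Dlg4, encoding PSD-95, differed by -0.29 in LH minus Ctrl (-0.76 to 0.17, adjusted p = 0.643), by -0.49 without LH 1, by -0.01 without LH 4 and by 0.14 without LH 3 and LH 4. Nptx1 differed by 0.24 in Ctrl minus HC (-0.05 to 0.53, adjusted p = 1).

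Of the editing enzymes, Adarb1 encodes ADAR2, which edits the pore site of Gria2. It was at 9.21 to 9.98 FPKM in Ctrl, 9.99 to 10.7 in NLH and 7.12 to 12.7 in LH, with log2 differences of 0.13 in NLH minus Ctrl (95% interval -0.17 to 0.42) and 0.09 in LH minus Ctrl (-0.20 to 0.39). Adarb2, a related protein without known editing activity, was at 3.57 to 4.39 in Ctrl and 2.13 to 3.08 in LH without overlap (-0.62, -0.99 to -0.25, limma adjusted p = 0.178). Its differences were -0.34 in NLH minus Ctrl (adjusted p = 0.917) and -0.28 in LH minus NLH (adjusted p = 0.750), and without NLH 1 they were -0.16 and -0.46. Adar differed by 0.32 in NLH minus Ctrl (-0.08 to 0.71, adjusted p = 0.954). FPKM do not show whether the Gria2 message was edited.

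The genes whose summed FPKM followed each member most closely over the 16 mice were found among 10435 genes with a mean of at least 1 FPKM. For Gria1 they were Large, Enc1 and Uqcrc2 (Pearson's r of log2 values 0.954, 0.954 and 0.947), for Gria2 Rpl4, Traf3 and Emc2 (0.949, 0.928 and 0.923) and for Gria4 Tmf1, Lemd3 and Mtmr10 (0.902, 0.889 and 0.888). Between members, r was 0.716 for Gria1 and Gria2, 0.566 for Gria2 and Gria4 and 0.261 for Gria1 and Gria4. Without LH 2 and LH 4 these were 0.568, 0.380 and -0.024. All points share the scaling of their library, and the values are given as descriptions.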

How the data were processed

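RNA-seq libraries were prepared by the authors from total hippocampal RNA of 16 mice. The reads were aligned to mm10 (with HISAT2 per the paper's methods, with STAR 2.42a per the submitters' notes), assembled and merged with StringTie 1.2.3, and quantified with Cufflinks. The deposited FPKM values per transcript had passed a filter whose limits are not given in the sources used here. They are not counts.

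FPKM were summed over the transcripts of each gene name. Limma 3.58.1 (R 4.3.3, trend and robust moderation) took log2(FPKM + 0.1) from the 16 mice and fitted a mean for each of the 4 groups, for 18287 gene sums, 80137 transcripts and 45017 transcript shares, with Benjamini-Hochberg adjustment over all of them. A pseudocount of 0.1 understates differences of low transcripts. Flip and subunit shares were compared by exact permutation tests, two-sided, where 4 mice against 4 cannot go below p = 0.0286. Annotation was GENCODE vM21 (GRCm38, the build of mm10). Depth was estimated on an assumed fragment length of 200 bases, and 72.9% to 82.3% of low values then lay within 0.1 of a whole fragment. The scripts were tested on simulated data. Other software was Python 3.11.15, numpy 2.4.6, pandas 2.3.3 and matplotlib 3.10.9.

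The members and lists were chosen with earlier results of these data known. The genes named were all Gria transcripts, the 3 list genes with the smallest limma p per comparison at a mean of at least 1 FPKM, Cacng8, Cnih2, Adarb1 and Dlg4, and the 3 genes most like each member. Prrt1 and Prrt2 fall outside this rule and were added once their values were known, as were Frrs1l and Shisa9. The retained-intron share, the coding sum of Gria2 and the sums of unnamed transcripts were chosen once values were known. Alternatives were pseudocounts of 0.01 and 1, a mean of at least 1 FPKM, median-ratio size factors, only the groups compared, the mouse number as a block, other transcript sets and tests, each mouse left out, and LH 3 and LH 4 left out. Other cell type markers (astrocytes, oligodendrocytes, their precursors, microglia, endothelium, choroid plexus, striatum and blood) had values for 4 of 4, 3 of 4, 2 of 3, 4 of 4, 2 of 3, 4 of 4, 5 of 5 and 2 of 3 genes, and none was at 0 in every mouse. The LH mice spanned the widest range of summed FPKM in each of these lists. They ran from 174.2 to 356.8 for oligodendrocytes (226.4 to 307.4 in Ctrl), 1.45 to 73.0 for choroid plexus (12.3 to 42.2) and 3.81 to 11.8 for endothelium (3.60 to 4.49). The part of this in the Gria values was not tested. Promoter sequences and the proteins were not used here.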

Additional observations from a re-analysis of the deposited data

Results flagged for a closer look

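Of 104 groups of 4 mice examined for a mouse far from the other 3, 4 held one, and chance gives about 1 in 20. Ctrl 1 had 37.4 FPKM of Gria1-202, where the other Ctrl mice were at 41.1 to 41.7. The remaining 3 concern mouse NLH 1 at the Gria2 locus and share its reads. NLH 1 had 13.0 FPKM of the flop isoform Gria2-201 (others 3.40 to 3.67), a Gria2 flip share of 64.4% (others 90.1% to 92.7%) and 37.7 FPKM in unnamed assembled transcripts of Gria2 (others 22.4 to 24.5). NLH 1 had the lowest estimated depth outside LH (26900000 fragments), a size factor of 1.103, and the most transcripts at 0 apart from LH 3 and LH 4 (7352), and the part of these in its values was not tested.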

How the results depend on the processing

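The numbers of Gria genes, transcripts and transcript shares past limma's adjusted threshold were 0 in each comparison under every pseudocount, filter, scaling and transcript set tried, without LH 3 and LH 4, and with the mouse number as a block. With a single mouse left out some were called. Of 2651 values recomputed under an alternative, 94 reversed, 25 lost and 22 passed the threshold and 29 moved. The other 2481 kept their direction and side of the threshold or, for a count, lay within 1.5 times, and for a share or FPKM without LH 3 and LH 4, where no test was made, moved by less than 1 SD. The cause of the changes was not tested. Some values that lost the threshold were exact tests with a Ctrl mouse left out, in which the groups still did not overlap. The mouse numbers were not found to pair the mice (median r of -0.00835 between same-numbered mice over 24 pairs after removal of group means), and with the replicate block Gria4 in LH vs. Ctrl stayed at 0.29 with a limma adjusted p of 0.562 and Gria2-202 in NLH vs. Ctrl at 0.71 with 0.682. The block changed no limma call on Gria genes, transcripts, transcript shares or partner genes, and it was not run for the exact tests or the study's cutoff.

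With 1 mouse left out at a time, Gria genes past the adjusted threshold numbered 0 to 1 in LH vs. Ctrl, and Gria transcripts 0 to 1 in NLH vs. Ctrl and 0 to 2 in LH vs. NLH. Transcripts with a changed share numbered 0 to 1 in NLH vs. Ctrl and 0 to 1 in LH vs. NLH. Those past the study's cutoff numbered 1 to 3 (Ctrl vs. HC), 1 to 4 (NLH vs. Ctrl), 1 to 4 (LH vs. Ctrl) and 0 to 2 (LH vs. NLH). The call in LH vs. Ctrl was Gria4 without LH 4, and all adjusted transcript calls came without NLH 1. With unequal variances the study's cutoff called 1 (NLH vs. Ctrl) and 2 (LH vs. Ctrl), and on log2(FPKM + 0.1) it called 1 in LH vs. NLH. The percent of all genes or transcripts called under these alternatives is not given here, so these counts cannot be set beside it.

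Some log2 differences turned with single mice, most of them near 0, but also those of Gria4-204, at -0.37 (NLH vs. Ctrl), -0.78 (LH vs. Ctrl) and -0.41 (LH vs. NLH) with all mice. For gene sums the ranges were -0.071 to 0.078 (NLH vs. Ctrl), -0.15 to 0.083 (LH vs. Ctrl) and -0.15 to 0.088 (LH vs. NLH) for Gria1, -0.012 to 0.015 (Ctrl vs. HC) and -0.027 to 0.10 (LH vs. Ctrl) for Gria2, and -0.076 to 0.0053 (Ctrl vs. HC) and -0.0081 to 0.34 (LH vs. NLH) for Gria4. In Ctrl vs. HC they were -0.025 to 0.074 for Gria1-201, -0.16 to 0.13 for Gria2-203, -0.044 to 0.025 for Gria2-204, -0.0065 to 0.060 for Gria2-206, -0.0024 to 0.0012 for Gria2-208 and -0.19 to 0.26 for Gria4-202. In NLH vs. Ctrl they were -0.22 to 0.29 for Gria4-202 and -0.68 to 0.12 for Gria4-204, and in LH vs. Ctrl -0.023 to 0.078 for Gria2-204 and -1.28 to 0.35 for Gria4-204. In LH vs. NLH they were -0.20 to 0.16 for Gria1-201, -0.14 to 0.043 for Gria1-202, -0.019 to 0.50 for Gria4-202 and -0.90 to 0.72 for Gria4-204. Adarb1 ranged over -0.014 to 0.26 (LH vs. Ctrl).

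In percentage points, the flip share with 1 mouse left out ranged over -6.57 to -4.12 (NLH vs. Ctrl), -7.11 to -3.21 (LH vs. Ctrl) and -1.55 to 2.35 (LH vs. NLH) in Gria1, over -10.4 to -6.63 (Ctrl vs. HC), 5.10 to 14.5 (NLH vs. Ctrl) and -9.84 to -3.21 (LH vs. Ctrl) in Gria2, and over -8.10 to 5.11 (NLH vs. Ctrl), -5.09 to 7.58 (LH vs. Ctrl) and -4.48 to 9.74 (LH vs. NLH) in Gria4. The subunit share ranged over -3.23 to -1.80 (NLH vs. Ctrl), -2.84 to 0.372 (LH vs. Ctrl) and -0.321 to 2.89 (LH vs. NLH) for Gria1 and -0.916 to 1.04 (LH vs. Ctrl) for Gria2, and the retained-intron share over -0.321 to 2.47 (Ctrl vs. HC) and -9.20 to -5.43 (LH vs. Ctrl). Coding Gria2 FPKM ranged over -2.01 to 0.219 (Ctrl vs. HC), 11.4 to 16.7 (NLH vs. Ctrl) and 6.45 to 12.1 (LH vs. Ctrl). Unnamed FPKM ranged over -1.09 to 0.508 (Ctrl vs. HC), -5.33 to -3.47 (NLH vs. Ctrl) and -10.2 to -7.32 (LH vs. Ctrl) at Gria1, over 2.20 to 3.68, -8.12 to -3.05 and 3.94 to 7.04 at Gria2, and over 1.18 to 2.27 (NLH vs. Ctrl) and -0.126 to 0.972 (LH vs. NLH) at Gria4.

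Median-ratio size factors turned Gria1 to 0.055 (LH vs. Ctrl) and 0.10 (LH vs. NLH), Gria2 to -0.015 (Ctrl vs. HC), and Gria1-201 and Gria1-202 to 0.12 and 0.087 (LH vs. NLH). They gave differences of 9.07 FPKM for coding Gria2 (LH vs. Ctrl) and of -4.78 (NLH vs. Ctrl) and -5.29 (LH vs. Ctrl) for unnamed Gria1. Without LH 3 and LH 4, Gria1 was at 0.23 (LH vs. Ctrl) and 0.24 (LH vs. NLH), Gria1-201 at 0.18 and 0.37, Gria1-202 at 0.13 (LH vs. NLH), Gria2-204 at -0.058 (LH vs. Ctrl), and Gria4-204 at 0.20 and 0.57. In LH vs. Ctrl, 3 partner genes (their alternatives were chosen after seeing the data) were then called, and Cnih2 was at 0.088, Prrt1 at 0.042 and Dlg4 at 0.14. The share of all genes called in that fit is not given here. The flip share of Gria1 was then at -1.46, the subunit share of Gria1 at 1.42 and of Gria2 at -2.34 (all LH vs. Ctrl) and -4.54 (LH vs. NLH), coding Gria2 at 15.9 and 1.67 FPKM, and the retained-intron share at -11.8 and -1.44. Chosen after seeing the data, locus sums gave 0.019 for Gria2 (LH vs. NLH) and 0.017 for Gria4 (Ctrl vs. HC), Gria2-203 as flop gave a flip share difference of -7.51 (Ctrl vs. HC), and unnamed transcripts in the total gave retained-intron differences of -0.0421 (Ctrl vs. HC), -5.22 (NLH vs. Ctrl), -7.24 (LH vs. Ctrl) and -2.02 (LH vs. NLH). With coding transcripts alone, also chosen later, the subunit share differed by -7.94 (NLH vs. Ctrl) and -6.25 (LH vs. Ctrl) for Gria1, 7.99 and 4.84 for Gria2, and -0.0483 for Gria4 (NLH vs. Ctrl). With transcripts of at least 1 FPKM the flip share of Gria4 differed by 8.38 (NLH vs. Ctrl). Isoform FPKM are estimates that divide shared reads, and 4 mice per group limit every comparison.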
